A study of Mus musculus with 16 samples.

Results

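Apolipoprotein genes and Mttp, which together build and coat the lipoproteins that leave the liver, were described in the liver of mice gavaged with vehicle or with caecal microbiota. The members were Apoa1, Apoa2, Apoa4, Apoa5, Apob, Apoc2, Apoc3, Apoe, Apom and Mttp, taken by name as the array lists them, whatever their values. They are 10 of the 37074 gene names on the array and 10 of the 20411 genes above background. Male C57BL/6 mice, 6 weeks old at the start, ate normal chow (NC) over the 4 weeks of the experiment and were 10 weeks old at sacrifice. They were kept on an inverted light cycle and fasted for 6 h before sacrifice. By gavage, once per week for 2 weeks, 6 mice received reduced PBS (Conv + PBS, called untransplanted in the labels), 5 the caecal content of lean NC-fed donors (Conv + LM) and 5 that of donors made obese by a high-fat diet (Conv + OM(HFD)). All recipients were wild-type and were never given antibiotics, and each inoculum was pooled from several donors, so that the mice of a group shared their donors. Liver RNA of each mouse was read on 1 Agilent one-colour array. Values are log2 intensity minus the 75th percentile of the array, so that 0 is the brightness of that percentile and 1 unit is a doubling.

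The liver secretes triglyceride and cholesterol as very low density lipoprotein, each particle built on a single molecule of apolipoprotein B that microsomal triglyceride transfer protein, the product of Mttp, loads with lipid. The smaller apolipoproteins exchange between particles in plasma and set how fast triglyceride is hydrolysed, how remnants are taken up by receptors and how high density lipoprotein forms. In mice several of them lie in gene clusters: by the RefSeq annotation of GRCm38.p6, Apoa1, Apoc3, Apoa4 and Apoa5 are neighbours on chromosome 9, and Apoc2 and Apoe lie near each other on chromosome 7.

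The 10 genes were read by 18 probes of 60 bases, 7 genes by several probes and Apoa1, Apoa4 and Apom by 1. Probe sequences of 3 genes are shown because the results turn on them: Apoa4 varied most between mice, and the inner probe of Apoa5 and both probes of Apoe belong to bright probe pairs that disagreed in 1 mouse. They are written 5′ to 3′ as the array design lists them, with no part in capitals, and with mm9 positions from the files.

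Apoa4, chr9:46051206-46051266, plus strand: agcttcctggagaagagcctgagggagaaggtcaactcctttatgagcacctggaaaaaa
Apoa5, inner probe, chr9:46078579-46078638, plus strand: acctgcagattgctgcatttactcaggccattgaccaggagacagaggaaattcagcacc
Apoe, brighter probe, chr7:20281732-20281791, minus strand: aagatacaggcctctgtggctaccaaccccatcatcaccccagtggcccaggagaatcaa
Apoe, dimmer probe, chr7:20281578-20281627, minus strand: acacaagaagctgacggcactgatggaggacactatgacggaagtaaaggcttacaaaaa

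The dimmer Apoe probe of 60 bases covers 50 bases of mm9, and the Apoa4 probe covers 61. Of the probes not printed, those that stood for their gene lie at chr9:46037921-46037980 for Apoa1, chr17:35267047-35267106 for Apom, chr3:137753868-137753927 for Mttp and chr12:8012697-8012756 for Apob. The outer probe of Apoa5, which stood for the gene because it was brighter, lies at chr9:46079431-46079490.

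Every library carried a hepatocyte signature. All 7 hepatocyte markers (Alb, Ttr, Serpina1c, Cps1, Cyp2e1, Fgb and Hnf4a) were above background, and their summed level lay between 11.94 and 12.34 in all 16 mice. Between 49.74% and 58.33% of probes were well above background on an array and no member probe was saturated. The pancreatic markers Cpa1, Pnlip and Prss2, the adipocyte marker Adipoq and the enterocyte marker Alpi were not above background, while the other marker of the pancreas list, 2 of 3 of the adipocyte list and 3 of 4 of the enterocyte list were. Conv + PBS mouse 1 and Conv + OM(HFD) mouse 25 stood apart: Saa1, an acute phase apolipoprotein, was at 6.55 and 9.04 against 3.81 to 5.32 in the other 14 mice, and the summed level of the neutrophil markers at 4.44 and 4.35 against 0.0 to 0.75. Kupffer cell markers were also highest in these 2 mice, at 6.53 and 5.62 against 4.1 to 4.88. Arntl, a core activator of the circadian clock, ranged from -3.28 to 0.18 over the mice. In whole liver, fewer cells of a type and less RNA per cell cannot be told apart.

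All 10 members were bright. The probe that stood for a gene, the brightest of those above background, lay at the 92.9th percentile of all probes for Mttp, at the 97.3rd for Apoa4 and higher for the other members. The mean over 16 mice was 9.89 for Apoa2, a structural protein of high density lipoprotein, 9.85 for Apoe, the ligand that remnant particles present to their receptors, and 9.39 for Apoc3, an inhibitor of triglyceride clearance. Then came Apoa5, a plasma activator of triglyceride clearance, at 8.88, and Apoa1, the main protein of high density lipoprotein, at 8.16. Apoc2, the cofactor of lipoprotein lipase, and Apob were both at 7.32, and Apom, a carrier of sphingosine-1-phosphate, at 7.06. Apoa4, an intestinal and hepatic apolipoprotein that is induced by lipid load, was at 5.40 and Mttp at 3.31. Apoa2 and Apoe lay closer to each other than the spread between mice (residual SD 0.13 and 0.15), as did Apoc2 and Apob (0.15 and 0.20). This is an order of probe brightness and no order of transcripts. A second probe of Apoa5 stood at 5.84, one of Apob at 4.59 and the dimmest probe of Apoc3 at -0.047, each far below its partner on the same gene, so that another choice of probe would change the order.

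None of the 10 genes separated the 3 groups. By the limma F test 0 of 10 members had an unadjusted p under 0.05, with p from 0.0965 (Apoa5) to 0.902, against 2.94% of all 20411 genes. Against vehicle, 0 members were called at an unadjusted limma p under 0.05 after HFD-microbiota (3.28% of all genes) and 0 after lean microbiota (3.97% of all genes). Between both inocula 1 of 10 was called, Apoa5 (2.73% of all genes), a single gene read against that background. After adjustment over all genes, the smallest limma p of any gene was 1.0, 0.996 and 1.0 in the 3 comparisons. The 2 comparisons with Conv + PBS share the same control mice.

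The intervals set how large a difference could have been missed. Of the 30 differences (10 genes in 3 comparisons), 29 had a 95% interval that held 0. All 30 intervals lay between 0.647-fold and 1.54-fold, and without Apoa4 between 0.719-fold and 1.44-fold. In no comparison did the mice of 2 groups separate completely for any member, whereas this held for 0.236% of all genes in Conv + OM(HFD) vs Conv + PBS, 0.280% in Conv + LM vs Conv + PBS and 0.448% in Conv + OM(HFD) vs Conv + LM.

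**Figure D1:**
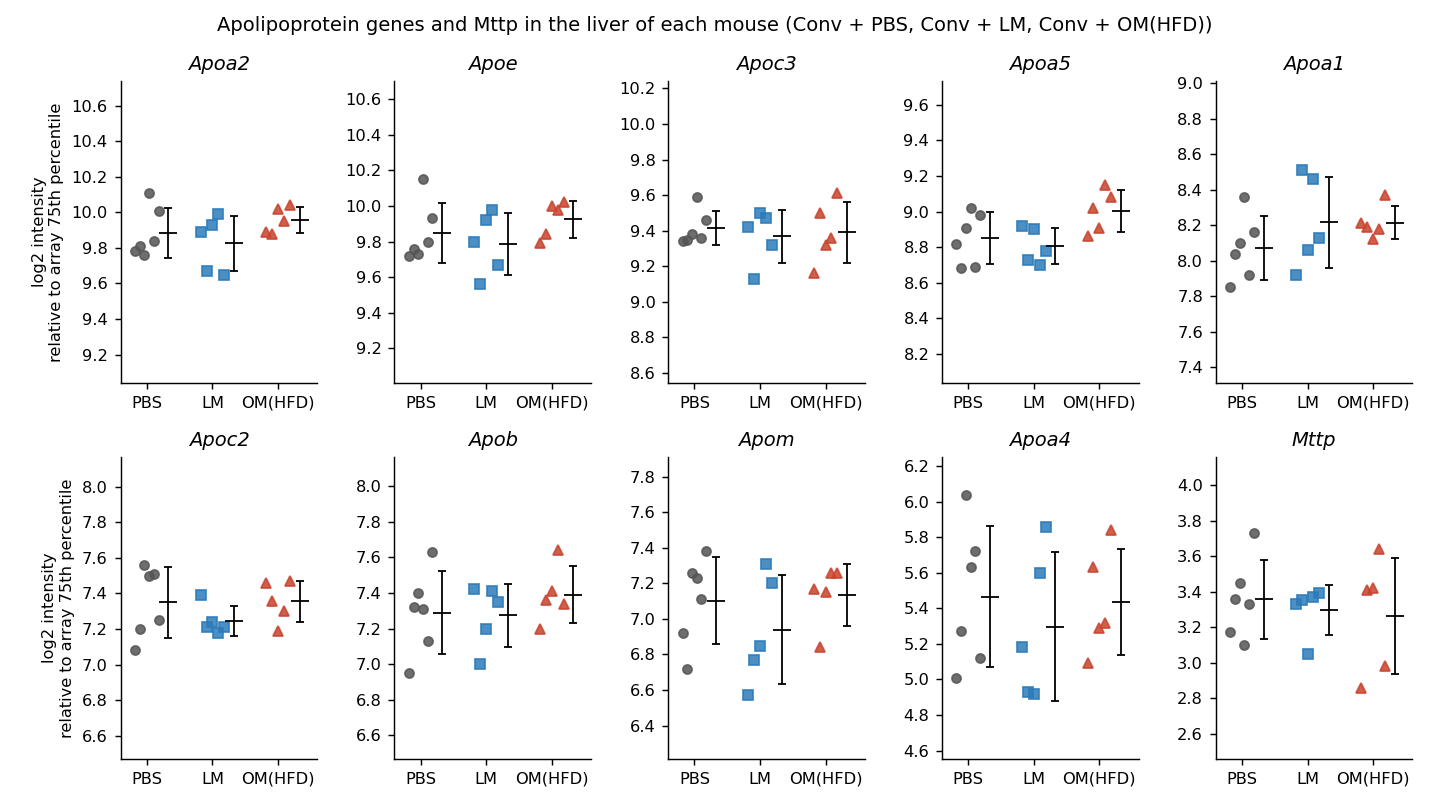
Log2 intensity relative to the 75th percentile of the array (vertical axes, each panel of the same height in log2 units) for the 10 members in Conv + PBS (grey circles, n = 6), Conv + LM (blue squares, n = 5) and Conv + OM(HFD) mice (red triangles, n = 5), with the mean ± SD in black. The groups overlap in every panel, and Apoa4 spans the widest range.

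Apoa5 was the member with the largest difference relative to its error. In Conv + PBS mice it ran from 8.68 to 9.02 with a median of 8.86. The Conv + LM mice stood at 8.92, 8.73, 8.90, 8.70 and 8.78, and the Conv + OM(HFD) mice at 8.86, 9.02, 8.91, 9.15 and 9.08. The means were thus 8.81 ± 0.10 (SD, n = 5) after lean and 9.0 ± 0.12 (SD, n = 5) after HFD-microbiota, and Conv + LM mice 13 and 15 overlapped with the lower Conv + OM(HFD) mice. The difference was 0.20 (SE 0.089, limma, 95% interval 0.0078 to 0.39), or 1.15-fold, with an unadjusted p of 0.0423, an adjusted p of 1.0 and an exact two-sided permutation p of 0.0397, where the smallest possible was 0.00794. Against vehicle it was 0.15 (limma p = 0.0921, exact permutation p = 0.0931) for HFD-microbiota and -0.04 (limma p = 0.613, exact permutation p = 0.578) for lean microbiota.

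The call for Apoa5 was kept under some alternatives and lost under others, and its direction was the same in all of them. With slide as a block the difference was 0.22 and with array weights 0.21, with unadjusted limma p of 0.0235 and 0.0236. The p was 0.043 with Arntl as a covariate, 0.0409 with only probes above background on all arrays and 0.0453 with only the mice compared. The call was lost with the inner probe, with the other processing named next and without some of the mice. Its inner probe, printed above, gave a difference of 0.12 between both inocula (limma p = 0.372), and the log2 table that the authors deposited gave 0.12 (limma p = 0.235). The difference was 0.14 with normexp background correction or quantile normalization and 0.16 with the mean of both probes, with p of 0.0917, 0.0937 and 0.129. The p was 0.063 with no filter on dim probes, where the difference itself was unchanged at 0.20. It was also above 0.05 without Conv + LM mouse 14, 16 or 17 and without Conv + OM(HFD) mouse 26, 29 or 30, each left out on its own, with differences of 0.16 to 0.19 and a highest p of 0.108. Within the first slide the difference was 0.12 (3 against 2 mice) and within the second 0.29 (2 against 3). Without the 2 mice of high Saa1 it was 0.24 (limma p = 0.0283, exact permutation p = 0.0317). Without Conv + PBS mouse 4 the difference of Conv + OM(HFD) from vehicle was 0.19 (limma p = 0.0459, exact permutation p = 0.0635).

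Apoc2 and Apoc3, other members of the plasma triglyceride route, lay closer than Apoa5 between the inocula and between HFD-microbiota and vehicle. Apoc2 had a median of 7.37 in Conv + PBS mice, which lay between 7.08 and 7.56, and stood at 7.39, 7.21, 7.24, 7.18 and 7.21 in Conv + LM and at 7.46, 7.36, 7.19, 7.30 and 7.47 in Conv + OM(HFD) mice. Its largest difference was 0.11, between the inocula (limma p = 0.281, exact permutation p = 0.119). For lean microbiota against vehicle it differed by -0.11 (limma p = 0.282, exact permutation p = 0.279), farther apart than Apoa5 was. Apoc3 lay between 9.34 and 9.59 in Conv + PBS mice, with a mean of 9.41 there, 9.37 after lean and 9.39 after HFD-microbiota. The largest of its differences, -0.04 for lean microbiota against vehicle, was smaller than the residual SD of 0.14 between mice of a group.

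Apob and Mttp, the pair that starts the particle, did not differ between groups beyond their spread. Apob ran from 6.95 to 7.63 in Conv + PBS mice (median 7.31), and was 7.42, 7.0, 7.20, 7.41 and 7.35 in Conv + LM and 7.20, 7.36, 7.41, 7.64 and 7.34 in Conv + OM(HFD) mice. Mttp ran from 3.10 to 3.73 in Conv + PBS mice (median 3.35), and was 3.33, 3.35, 3.05, 3.37 and 3.39 in Conv + LM and 2.86, 3.41, 3.42, 3.64 and 2.98 in Conv + OM(HFD) mice. The Conv + OM(HFD) mice thus held both the lowest Mttp of all mice, in mouse 25 with high Saa1, and the second highest. The largest differences were 0.11 for Apob, between the inocula (limma p = 0.374, exact permutation p = 0.365), and -0.10 for Mttp, HFD-microbiota against vehicle (limma p = 0.511, exact permutation p = 0.561). The second Mttp probe was well above background on 10 of 16 arrays and had a residual SD of 0.81, against 0.24 for the first.

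Of the high density lipoprotein proteins, Apoa1 was the only member with a mean above vehicle in both transplanted groups. It ran from 7.85 to 8.36 in Conv + PBS mice (median 8.07), and was 7.92, 8.51, 8.06, 8.46 and 8.13 in Conv + LM and 8.21, 8.19, 8.12, 8.18 and 8.37 in Conv + OM(HFD) mice. Both differences from vehicle were 0.14 (SE 0.12), with a limma p of 0.235 and an exact permutation p of 0.143 for HFD-microbiota and 0.234 and 0.292 for lean microbiota, and the 5 Conv + OM(HFD) mice lay close together while 2 of the Conv + LM mice were the highest of all. Apoa2 was 9.89 ± 0.14 (SD, n = 6) in Conv + PBS, 9.83 ± 0.16 (n = 5) in Conv + LM and 9.96 ± 0.07 (n = 5) in Conv + OM(HFD) mice. Apom ran from 6.72 to 7.38 in Conv + PBS mice (median 7.17), and was 6.57, 6.77, 6.85, 7.31 and 7.20 in Conv + LM and 7.17, 6.84, 7.15, 7.26 and 7.26 in Conv + OM(HFD) mice. Between the inocula Apom differed by 0.20, as much as Apoa5 did, but with an SE of 0.15 (limma p = 0.214, exact permutation p = 0.294). Leaving out 1 mouse at a time it ran from 0.11 (without Conv + LM mouse 13) to 0.29 (without Conv + LM mouse 16), and it was 0.53 within the first slide (3 against 2 mice) and -0.07 within the second (2 against 3).

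**Figure D2:**
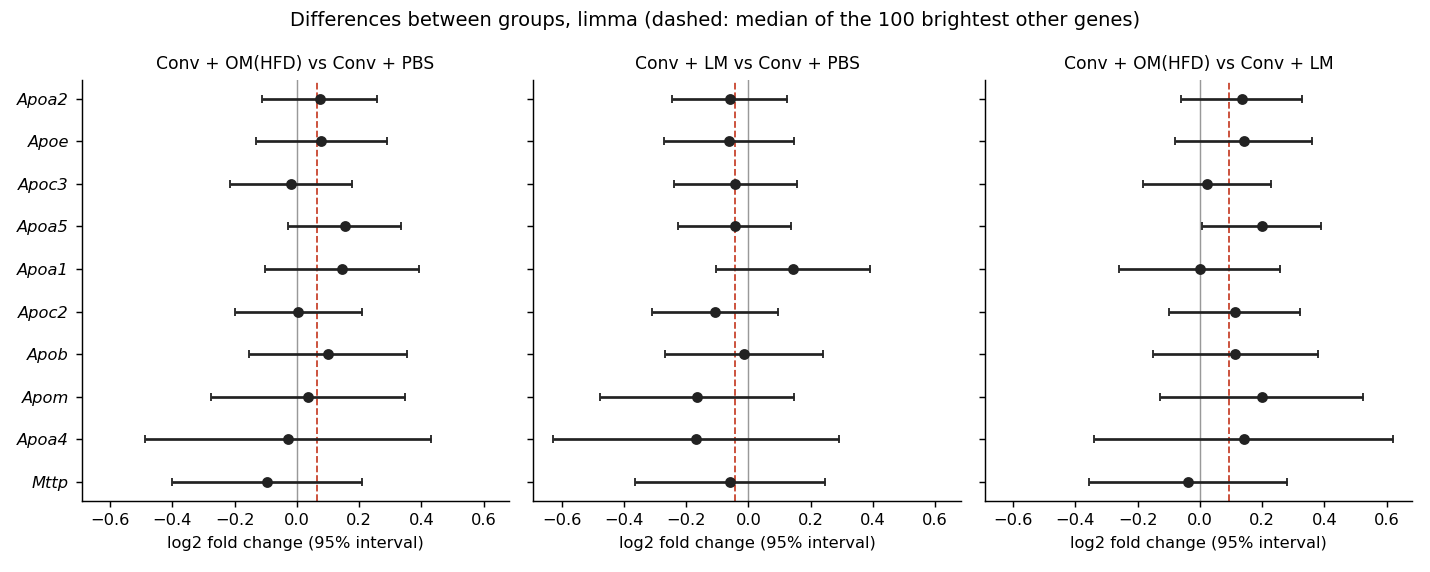
Difference in log2 intensity of each member in the 3 comparisons (first group minus second; points, limma estimate; bars, 95% interval), ordered by probe brightness. Only the interval of Apoa5 between both inocula leaves out 0, and the dashed line is the median difference of the 100 brightest other genes, 0.06, -0.04 and 0.09 in the 3 panels.

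Directions over the 10 genes are given beside those of bright genes in general. Of the 10, 7 had a higher and 3 a lower mean after HFD-microbiota than after vehicle (median log2 difference 0.05, against -0.0015 over all genes), 1 a higher and 9 a lower mean after lean microbiota than after vehicle (median -0.06, against -0.01), and 8 a higher and 2 a lower mean after HFD-microbiota than after lean microbiota (median 0.12, against 0.0080). Of the 100 brightest other genes, 87, 23 and 96 were higher in these comparisons, with median differences of 0.06, -0.04 and 0.09. Single mice moved these counts. For HFD-microbiota against vehicle the members were 5 higher and 5 lower without Conv + PBS mouse 1 or 2 and with normexp, and 9 and 1 without Conv + PBS mouse 4 or Conv + OM(HFD) mouse 25, and leaving out 1 mouse at a time their median ran from 0.02 to 0.10. For lean microbiota against vehicle 57 of the 100 bright genes were higher without Conv + LM mouse 14 (median 0.0048) and 52 with array weights (median 0.0027), while the members were 3 higher and 7 lower in both. Without Conv + PBS mouse 4 the medians in this comparison were -0.01 for the members and -0.01 for the bright genes. Between the inocula they were 0.08 and 0.05 without Conv + LM mouse 14. With quantile normalization, which gives all arrays the same distribution, the bright genes had medians of -0.00424, -0.00925 and -1.77e-06, and the counts of members were 6 higher and 4 lower, 2 and 8, and 7 and 3, with medians of 0.01, -0.03 and 0.06. In the log2 table of the authors they were 6 and 4, 2 and 8, and 6 and 4, with medians of 0.0067, -0.03 and 0.03. The part of the bright end of the array in these directions was otherwise not tested.

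Some members moved together from mouse to mouse. Over deviations from group means in 16 mice, 3 of 45 pairs of members had an adjusted p under 0.05. Apoa2 and Apoe had an r of 0.96 (rho 0.918, adjusted permutation p = 0.00045 and 0.0018), Apoc3 and Apoe an r of 0.768 (rho 0.774, adjusted permutation p = 0.011 and 0.02) and Apoa2 and Apoc3 an r of 0.703 (rho 0.612, adjusted permutation p = 0.0284 and 0.101). These were the 3 brightest members. Without the 2 mice farthest from the median of the first gene of each pair, r was 0.934, 0.719 and 0.617, and within the slides it lay between 0.715 and 0.965.

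Each of the 3 also followed the median deviation of the 100 brightest other genes, a measure added after the values were seen. Here r was 0.96 for Apoe, 0.901 for Apoa2 and 0.843 for Apoc3 (rho 0.968, 0.879 and 0.782), with adjusted permutation p of 0.0002, 0.0006 and 0.0008 for r and 0.0002, 0.0017 and 0.00567 for rho over 20 relations. Without the 2 mice farthest from the median of the bright genes, Conv + LM mouse 14 and Conv + PBS mouse 4, r was 0.94, 0.856 and 0.755. Conv + PBS mouse 4, highest of all in Apoa2 (10.11) and Apoe (10.15), was also the mouse whose bright genes lay highest above their group mean, at 0.19. With quantile normalization the 3 pairs of members had r of 0.111 (Apoa2 and Apoe), 0.158 (Apoc3 and Apoe) and 0.0166 (Apoa2 and Apoc3), and in the log2 table of the authors 0.331, -0.067 and -0.0213, so that 0 of 45 pairs had an adjusted permutation p under 0.05 in either. With normexp they had 0.941, 0.751 and 0.67, and with the mean of all probes 0.915, 0.763 and 0.718. In both, only Apoa2 and Apoe had an adjusted permutation p under 0.05 (0.0009 and 0.00045). The residual SD of Apoe fell from 0.15 to 0.041 with quantile normalization and to 0.044 in the table of the authors, and that of Apoa2 from 0.13 to 0.036 and 0.038. Quantile normalization sets the values of the brightest probes almost by rank alone, so these falls in r and SD are partly built into it. The table of the authors has near-identical distributions on all arrays too, so it is no separate check.

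Apob and Mttp, neither among the brightest, had an r of 0.663 (rho 0.626, adjusted permutation p = 0.0664 and 0.101) that did not pass adjustment. It was 0.728 with quantile normalization (adjusted permutation p = 0.0945) and 0.664 in the table of the authors (adjusted permutation p = 0.447), and 0.224 when all probes of each gene were averaged, which brings in the dim Mttp probe. Without the 2 mice farthest from the median of Apob, Conv + PBS mice 1 and 6, r was 0.548, and within the slides it was 0.393 and 0.777. Over all 45 pairs 39 had an r above 0, with a median of 0.222. Of the neighbours on chromosome 9 the highest was Apoa5 and Apoc3, with an r of 0.619 (rho 0.644, adjusted permutation p = 0.124 and 0.101).

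**Figure D3:**
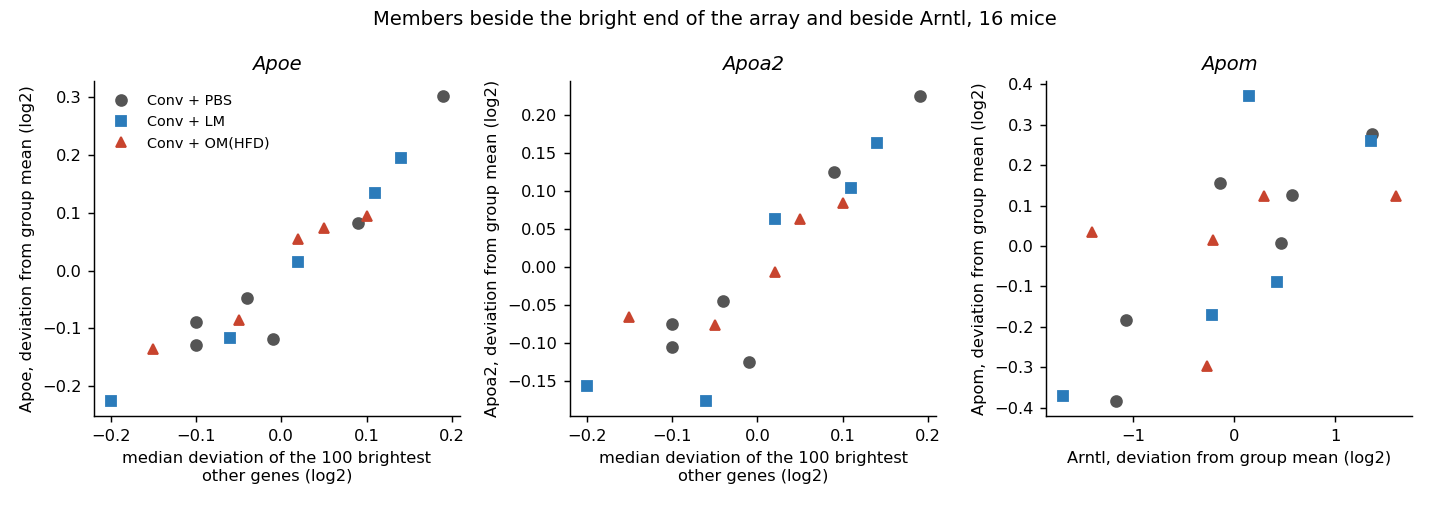
Deviation of Apoe and of Apoa2 from the group mean (vertical axes, log2) against the median deviation of the 100 brightest other genes (horizontal axes, log2), and deviation of Apom against that of Arntl, with 1 point per mouse. Apoe and Apoa2 rise with the bright genes in all 3 groups (r = 0.96 and 0.901), and Apom rises with Arntl with more scatter (r = 0.696).

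Of the members, Apom had the highest r with Arntl. The r over 16 mice was 0.696 (rho 0.691, permutation p = 0.00585 and 0.00601 before adjustment). Adjusted over the same 20 relations, the permutation p was 0.0293 and 0.0301, and no other member passed with Arntl. These 20 relations also held those with the bright genes, where Apoe, Apoa2 and Apoc3 had far smaller p. Their small p lowered the adjusted p of Apom. An adjustment over the Arntl relations alone was not run, so whether Apom would pass there is not shown. Conv + LM mouse 13, lowest of all in Apom (6.57), was the lowest of all in Arntl (-3.28). Without Conv + LM mouse 13 and Conv + OM(HFD) mouse 30, the 2 farthest from the median of Arntl, r was 0.637, and within the slides it was 0.654 and 0.687. The r was 0.634 with normexp, 0.582 with quantile normalization, 0.57 in the table of the authors and 0.621 with the mean of all probes, and in none of these was the adjusted permutation p under 0.05 (0.0595, 0.398, 0.614 and 0.0565). With Arntl as a covariate the residual SD of Apom fell from 0.25 to 0.19, and Apom was called in 0 of the 3 comparisons. The mice were on an inverted light cycle, and the time of day of each sacrifice is not given in the sources used here.

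Apoa4 varied most between mice of a group. Its residual SD was 0.38 on the log2 scale, with 74.0% of all tested genes below it, against 0.13 for Apoa5, the least variable member, with 10.9% below. In Conv + PBS mice it ran from 5.01 to 6.04 (median 5.45). It was 5.18, 4.93, 4.92, 5.60 and 5.86 in Conv + LM and 5.09, 5.63, 5.29, 5.32 and 5.84 in Conv + OM(HFD) mice, so that each group held both low and high mice and the range over all 16 was 2.19-fold. The group means were 5.46 ± 0.40 (SD, n = 6), 5.30 ± 0.42 (n = 5) and 5.44 ± 0.30 (n = 5), and the difference between the inocula of 0.14 had a 95% interval from -0.34 to 0.62 (limma p = 0.544, exact permutation p = 0.54). Apom and Mttp followed with residual SDs of 0.25 and 0.24, near the median of all genes (0.24), and the median of the 10 members was 0.171. Apoa4 kept the largest residual SD under every alternative for which it was computed, 0.35 to 0.39, except the mean of all probes, where Mttp reached 0.47.

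**Figure D4:**
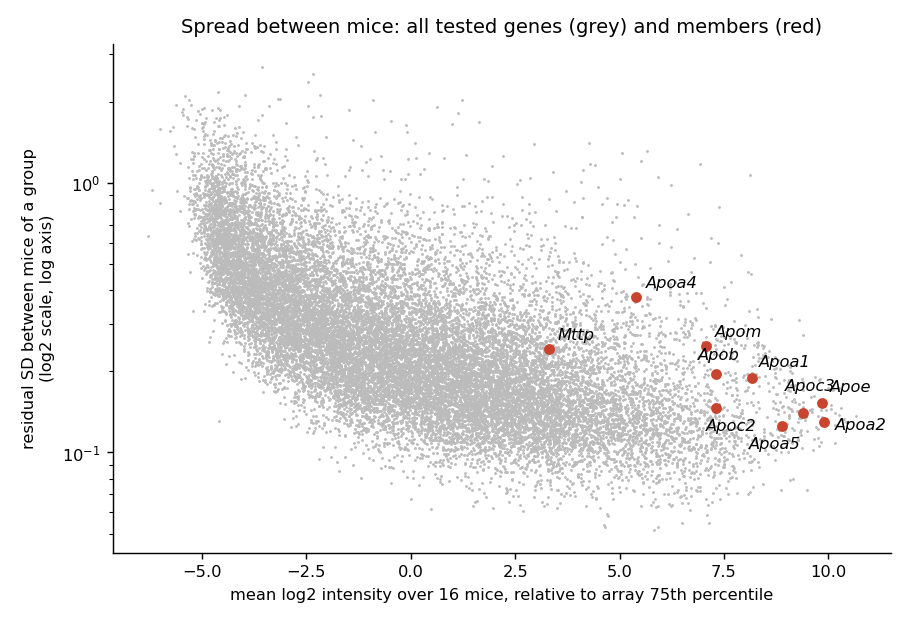
Residual SD between mice of a group (vertical axis, log2 units on a log axis) against the mean log2 intensity over 16 mice (horizontal axis) for all tested genes (grey) and the 10 members (red). Spread falls with brightness over all genes, and Apoa4 lies above most genes as bright as it.

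Genes whose deviations followed those of Apoa4 most closely over the 16 mice were picked as the top 5 of all tested genes, so that their r is a description of extremes. They were an unnamed transcribed region on chromosome 19 (probe at chr19:5845052-5845111, r = 0.946), AK158451 (0.915), Scn4b (0.872), Tas1r1 (0.86) and Sprr1a (0.827). Scn4b, a sodium channel subunit, was well above background on 10 of 16 arrays and Tas1r1, a taste receptor, on 6. Among the lipoprotein genes the closest were Gpihbp1, which anchors lipoprotein lipase in capillaries, at rank 361 (r = 0.593) and Angptl4, an inhibitor of that lipase, at rank 701 (r = 0.548). The summed neutrophil and Kupffer cell markers had an r of -0.458 and -0.382 with Apoa4, the hepatocyte markers 0.153 and the 3 enterocyte markers above background 0.286. The neutrophil and Kupffer sums were highest in Conv + PBS mouse 1 and Conv + OM(HFD) mouse 25, whose Apoa4 read 5.01 and 5.09. The r without these mice was not computed. Sinusoidal endothelium markers had the highest r of the 12 lists, at 0.507, followed by bile duct markers at 0.438, and the other lists lay between -0.28 and 0.257. These are descriptions over 16 mice, and their part in its spread was not tested.

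Where a gene had several probes, these mostly moved together. The r over mice was 0.924 for Apoa2, 0.872 for Apoc2, 0.834 for both bright probes of Apoc3, 0.744 for Apob, 0.612 for Apoe, 0.523 for Apoa5 and 0.431 for Mttp. The dimmest probe of Apoc3, at another end of the gene (chr9:46043606-46043665), had an r of 0.379 and 0.35 with the other two. Of all gaps between the first and second probe of a gene, the one farthest from its mean over the 16 mice was that of Mttp in Conv + OM(HFD) mouse 26, at 2.0, where the dim second probe read -2.01 against -4.89 to -3.01 in the other mice. Conv + LM mouse 14 stood out for Apoa5 and Apoe, and not for Mttp (0.08): its inner Apoa5 probe lay 0.47 above the gap seen on average over the 16 mice and its dimmer Apoe probe 0.38 above, while the other mice lay between -0.25 and 0.18 for Apoa5 and between -0.20 and 0.12 for Apoe. In that mouse the outer Apoa5 probe read 8.73, in the lower part of all mice, and the inner probe 6.15, the second highest of all. For Apoe the brighter probe read 9.56, the lowest of all, and the dimmer 9.03. The same mouse was highest in Apoa1 (8.51) and lowest in Apoc3 (9.13). The median correlation of its array with the others was 0.9836, the third lowest, after Conv + PBS mouse 1 (0.9815) and Conv + OM(HFD) mouse 25 (0.983) and below 0.9846 to 0.9893 in the other 13. Its members also lay farthest from their group means of all mice, with a median absolute deviation of 0.199.

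**Figure D5:**
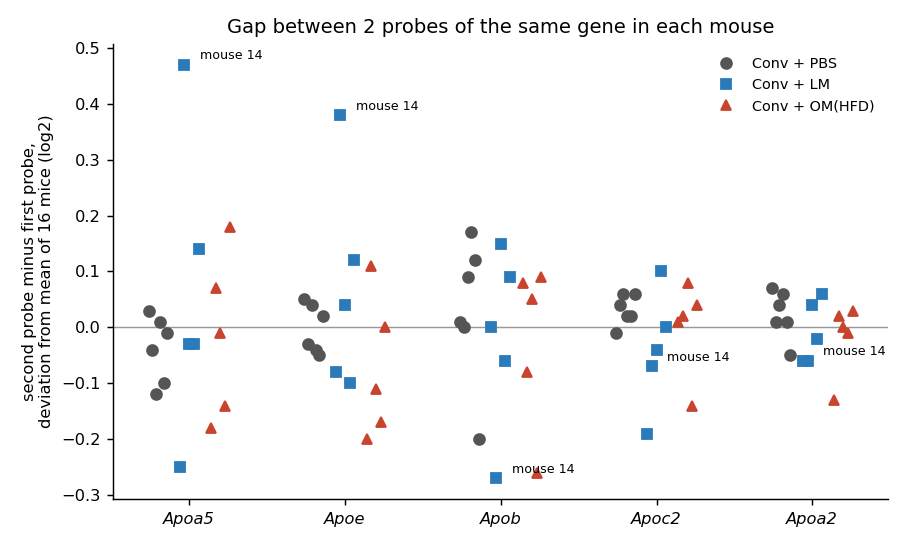
Gap between the second and the first probe of 5 members in each mouse, without Apoc3 and the dim Mttp pair (vertical axis, log2, as deviation from the mean gap over 16 mice), with Conv + PBS in grey, Conv + LM in blue and Conv + OM(HFD) in red. Conv + LM mouse 14, marked by name, lies apart for Apoa5 (0.47) and Apoe (0.38), is the lowest of all for Apob, close to Conv + OM(HFD) mouse 29 (-0.27 and -0.26), and lies within the range of the other mice for Apoc2 and Apoa2.

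The 2 mice with high Saa1 and neutrophil markers held several of the extremes. Conv + PBS mouse 1 had the lowest Apoa1 (7.85), Apob (6.95) and Apoc2 (7.08) of all 16 mice, and Conv + OM(HFD) mouse 25 the lowest Mttp (2.86). Without both mice, a setting added after the values were seen, the counts of members called stayed 0, 0 and 1, and 658, 1002 and 772 of all genes were called at an unadjusted limma p under 0.05, against 669, 811 and 557 with them.

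Of 72 other genes of lipoprotein secretion, remodelling, uptake, sterol export, Apob editing and their regulators, all were tested and few were called. Against vehicle 1 was higher and 1 lower after HFD-microbiota (2.78% of the list), 1 higher and 0 lower after lean microbiota (1.39%), and 0 in either direction between the inocula, at or below the share over all genes in each. Apon, a mouse apolipoprotein gene, was 0.26 higher after HFD-microbiota than after vehicle (limma p = 0.0457, exact permutation p = 0.0368, adjusted limma p = 1.0). None of the 11 secretion genes, which include Sar1b, Surf4 and Tm6sf2, and none of the 4 genes around Apob editing was called in any comparison.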

How the data were processed

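Liver RNA of 16 mice was hybridised to 16 Agilent one-colour arrays on 2 slides. Groups came from the labels. The authors scanned the arrays with Agilent Feature Extraction 10.10.1.1, whose deposited intensity values are background-subtracted, linear and not normalized between arrays, and whose deposited flags mark spots well above background. Also deposited were log2 values processed by the authors. Set against the scanner files, these had the same order as log2 of the median spot intensity and near-identical distributions on all arrays, as quantile normalization gives, a step not described in the sources used here. All its per-sample columns were matched.

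Control spots and non-uniform spots were left out, spots of a probe averaged, and log2 values set relative to the 75th percentile of their array. A probe was kept where 5 or more of 16 arrays had it well above background (30671 of 56605), and the probe of highest mean stood for a gene (6819 of 20411 genes had several). Groups were compared by limma 3.58.1 in R 4.3.3 with all 16 mice in 1 fit, at an unadjusted p under 0.05, the p threshold that the methods give for the arrays beside a limit on fold change not used here, with Benjamini-Hochberg adjustment over all genes. Exact two-sided permutation tests over mice were run for each member and, added after the values were seen, for Apon and 2 reduced sets of mice for Apoa5, with a smallest possible p of 0.00216 against vehicle and 0.00794 between the inocula when all mice were used. Relations used deviations from group means and 100000 permutations within groups, adjusted over 45 pairs or over 20 relations. The fits were tested on simulated data. Plots used matplotlib 3.10.9 in Python 3.11.15 with numpy 2.4.6 and pandas 2.3.3.

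The members and lists were chosen with earlier results of these data known. Named genes were the 10 members, other lipoprotein genes at an unadjusted p under 0.05 (some of these are not reported here), and the 5 genes most like the most variable member. Gpihbp1, Angptl4, Saa1 and Arntl were named after their values were seen. Precision is limited by the number of arrays. Nothing in the labels links mice to cages. The methods state that 5 or 6 mice shared a cage, and the groups here hold 6, 5 and 5 arrays. Cage may therefore coincide with inoculum, and the effects of both cannot be told apart. The p-values measure only the spread between these mice.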

Additional observations from a re-analysis of the deposited data

Results flagged for a closer look

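In 3 of 30 groups of mice (10 members in 3 groups), 1 mouse lay far from the others of its group by the ratio of the gap to the range. Chance alone gives about 1 in 20 such groups. Apoc2 was at 7.39 in Conv + LM mouse 13, above the other 4 mice of its group, which lay between 7.18 and 7.24. The second Apoc2 probe read 5.33 in that mouse, within the other 4 (5.27 to 5.42). Apom was at 6.84 in Conv + OM(HFD) mouse 26, below the other 4 (7.15 to 7.26). Mttp was at 3.05 in Conv + LM mouse 15, below the other 4 (3.33 to 3.39). The dim second Mttp probe read -4.89 there, also below the other 4 (-4.73 to -3.77). None of these members was called in any comparison, and the cause of these values was not tested.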

How the results depend on the processing

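Of 864 alternative values of the 30 member differences, 783 kept their direction and their side of the limma threshold. Many of the 864 could not change direction. Leaving out a mouse of the group not compared, both changes of the filter, fitting only the mice compared and the t-test leave a difference as it was. Of the others 68 changed sign, 0 of them past the threshold, 12 lost it and 1 gained it, and those that lost or gained it were all of Apoa5. Between the inocula 0 members were called with normexp, quantile normalization, the table of the authors, no filter on dim probes or the mean of all probes, and Apoa5 was called, with a p of 0.0232, by the methods' t-test, which they state for other data and not for the arrays. Leaving out 1 mouse at a time, the count was 0 to 1 for Conv + OM(HFD) vs Conv + PBS (1 without Conv + PBS mouse 4) and 0 to 1 for Conv + OM(HFD) vs Conv + LM. Of all genes, 880 were called between the inocula with slide as a block and 1230 in Conv + LM vs Conv + PBS with Arntl as a covariate. Pairs of members with an adjusted p under 0.05 numbered 1 with normexp, 0 with quantile normalization, 0 in the table of the authors and 1 with the mean of all probes, settings chosen after seeing the data.

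Signs changed as follows, in log2 units, with the cause not tested. For Conv + OM(HFD) vs Conv + PBS, normexp gave -0.0044 for Apoc2 and -1.7e-05 for Apom, quantile normalization -0.0022 for Apoa2, the table of the authors -0.027 for Apoa2, slide as a block -0.0047 for Apoc2, array weights -0.053 for Apoc2 and 0.0013 for Apoc3, the mean of all probes -0.011 for Apoc2, Arntl as a covariate -0.013 for Apom, leaving out both mice of high Saa1 -0.076 for Apoc2, 0.024 for Apoc3 and -0.0099 for Apom, and the second Apoc2 probe -0.026. For Conv + LM vs Conv + PBS, quantile normalization gave 0.019 for Apob, the table of the authors 0.0029 for Apoe, array weights 0.0014 for Apoc3 and 0.0058 for Apoe, the mean of all probes 0.0065 for Apoa5 and 0.019 for Apoc3, and single probes 0.057 for Apoa5, 0.0066 and 0.093 for Apoc3 and 0.012 for Apoe. For Conv + OM(HFD) vs Conv + LM, quantile normalization gave -0.052 for Apoc3, the table of the authors -0.0067 for Apoa2 and -0.021 for Apoc3, slide as a block 0.0043 for Apoa1, array weights -0.00011 for Apoc3 and 0.031 for Mttp, the mean of all probes -0.043 for Apoc3 and 0.13 for Mttp, leaving out both mice of high Saa1 0.061 for Mttp, and single probes -0.052 and -0.10 for Apoc3, -0.0041 for Apoe and 0.30 for Mttp.

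Leaving out 1 mouse at a time changed a sign in the following. For Conv + OM(HFD) vs Conv + PBS the values ran from -0.13 to 0.087 for Apoa4, -0.048 to 0.048 for Apoc2, -0.073 to 0.038 for Apoc3, -0.043 to 0.11 for Apom and -0.19 to 0.0027 for Mttp. For Conv + LM vs Conv + PBS they ran from -0.082 to 0.054 for Apob, -0.076 to 0.017 for Apoc3 and -0.11 to 0.017 for Mttp. For Conv + OM(HFD) vs Conv + LM they ran from -0.075 to 0.074 for Apoa1, -0.036 to 0.081 for Apoc3 and -0.13 to 0.061 for Mttp. The F test was not run with the t-test or with only the mice of the groups compared. No paired analysis was possible because no mouse number occurs in more than 1 group.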
